A study of Mus musculus with 9 samples.

Results

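Small RNA of subcutaneous adipose tissue (fat beneath the skin) was compared between mice with a homozygous knockout of Ago1 in endothelial cells (Homo KO) and their wild-type littermates (WT). The genotype label chose 6 of the 9 libraries of the series, 3 of Homo KO and 3 of WT. The other 3 libraries, from Hete KO mice with the same endothelial knockout in heterozygous form, entered the estimate of spread and are given beside the results. Each library came from an individual mouse. All mice, WT included, were 24 weeks old and had been on a diet rich in fat and sucrose since the age of 8 weeks, for 16 weeks. Neither the strain nor the promoter that restricts the knockout to endothelium is given in the sources used here. RNA came from the whole tissue, in which endothelium is a minority of the cells, and Ago1 itself was not analysed here because the values are for mature miRNAs only, so the genotypes were taken as labelled.

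AGO1 is an Argonaute protein, the partner that holds a mature miRNA and presents its bases for pairing with target mRNAs. A miRNA precursor folds into a hairpin, and Dicer cuts it to a duplex of a strand from the 5′ arm (5p) and a strand from the 3′ arm (3p). An Argonaute keeps the guide strand of the duplex while the passenger strand is usually lost, so the level of each arm depends on transcription of the precursor and on which strand Argonaute proteins hold and protect. Pairing with targets starts at the seed, bases 2 to 8 of the mature miRNA, and miRNAs with the same seed form a family with overlapping predicted targets.

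The sequences below carry the results that follow. They are RefSeq entries of the GRCm38.p6 table, written 5′ to 3′ with the seed in capitals. Of the 489 miRNAs tested, 405 had a sequence in that table. The miRNAs that fell in Homo KO and had an entry are shown first, each with the relatives of the same seed that the results below compare it with.
miR-351-5p: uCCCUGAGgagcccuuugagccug
miR-125a-5p: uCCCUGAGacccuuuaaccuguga
miR-125b-5p: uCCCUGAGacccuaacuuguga
miR-221-3p: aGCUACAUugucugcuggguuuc
miR-222-3p: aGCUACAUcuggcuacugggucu
miR-221-5p: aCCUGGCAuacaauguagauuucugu
miR-342-5p: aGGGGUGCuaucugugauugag
miR-139-3p: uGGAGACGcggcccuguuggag
miR-154-5p: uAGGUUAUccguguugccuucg
miR-503-5p: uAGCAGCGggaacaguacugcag
miR-18a-5p: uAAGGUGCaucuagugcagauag

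The miRNAs that rose are shown next, again with relatives of the same seed. The names miR-3970 and miR-129-1-3p also rose.
miR-142a-5p: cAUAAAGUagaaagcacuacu
miR-3964: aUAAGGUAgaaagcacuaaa
miR-215-5p: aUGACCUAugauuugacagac
miR-192-5p: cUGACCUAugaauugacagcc
miR-129-2-3p: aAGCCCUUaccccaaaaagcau
miR-203-3p: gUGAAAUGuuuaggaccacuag
miR-1843a-5p: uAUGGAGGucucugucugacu
miR-30a-3p: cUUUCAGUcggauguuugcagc
miR-30e-3p: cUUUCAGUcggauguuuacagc

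Hairpins with the smallest p for a change between their arms are shown with both mature arms in capitals, the 5p arm before the 3p arm. Among them only Mir142 passed the test given below. Mir142 lies on GRCm38 chromosome 11, chr11:87756864-87756927, on the plus strand in an intron of the noncoding gene Mir142hg. Mir152 lies at chr11:96850393-96850465, on the plus strand in an intron of Copz2. Mir342 lies at chr12:108658620-108658718, on the plus strand in an intron of Evl, and Mir139 at chr7:101475376-101475443, on the plus strand in an intron of Pde2a.
Mir142: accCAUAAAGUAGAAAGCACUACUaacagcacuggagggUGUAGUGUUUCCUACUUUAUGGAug
Mir152: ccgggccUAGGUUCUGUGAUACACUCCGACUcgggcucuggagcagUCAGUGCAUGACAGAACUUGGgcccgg
Mir342: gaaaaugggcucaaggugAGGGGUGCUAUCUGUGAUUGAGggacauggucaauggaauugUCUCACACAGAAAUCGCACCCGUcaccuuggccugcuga
Mir139: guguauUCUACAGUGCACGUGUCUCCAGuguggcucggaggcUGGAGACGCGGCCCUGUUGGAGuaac

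Values are quantile-normalised log2(x + 1) levels, called levels here, so that every library holds nearly the same set of ranked values and a fold change is on the log2(x + 1) scale. Read depth is unknown, and replicate spread is the only measure of precision. Pearson correlations between the 6 libraries were 0.962 to 0.983 over the 489 tested miRNAs. The remaining sign of depth, the count of miRNAs sitting at the floor value of a library, was 63 to 104 in WT and 102 to 141 in Homo KO (exact permutation test, two-sided p = 0.2, where 3 mice against 3 allow no p under 0.1). The 4 striated muscle miRNAs of the marker list were all measured and 1 of them was at the floor value in some library. Their summed level ran from 12.24 to 19.19 in WT and from 11.57 to 16.35 in Homo KO, and was highest in Hete KO replicate 2, WT replicate 2 and WT replicate 1. These values go with the results below, and their part in those results was not tested for any single miRNA beyond the refits given beside it.

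Of 489 miRNAs, 8 were higher and 8 lower in Homo KO (limma, Benjamini-Hochberg adjusted p under 0.05), which is 1.64% in each direction and 3.27% in all. In 160 miRNAs (32.7%) the 3 Homo KO mice did not overlap the 3 WT mice, 90 of them higher (18.4%) and 70 lower (14.3%). An unadjusted p under 0.05 was reached by 117 (23.9%). The median log2 fold change over all tested miRNAs was 0.07.

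**Figure D1:**
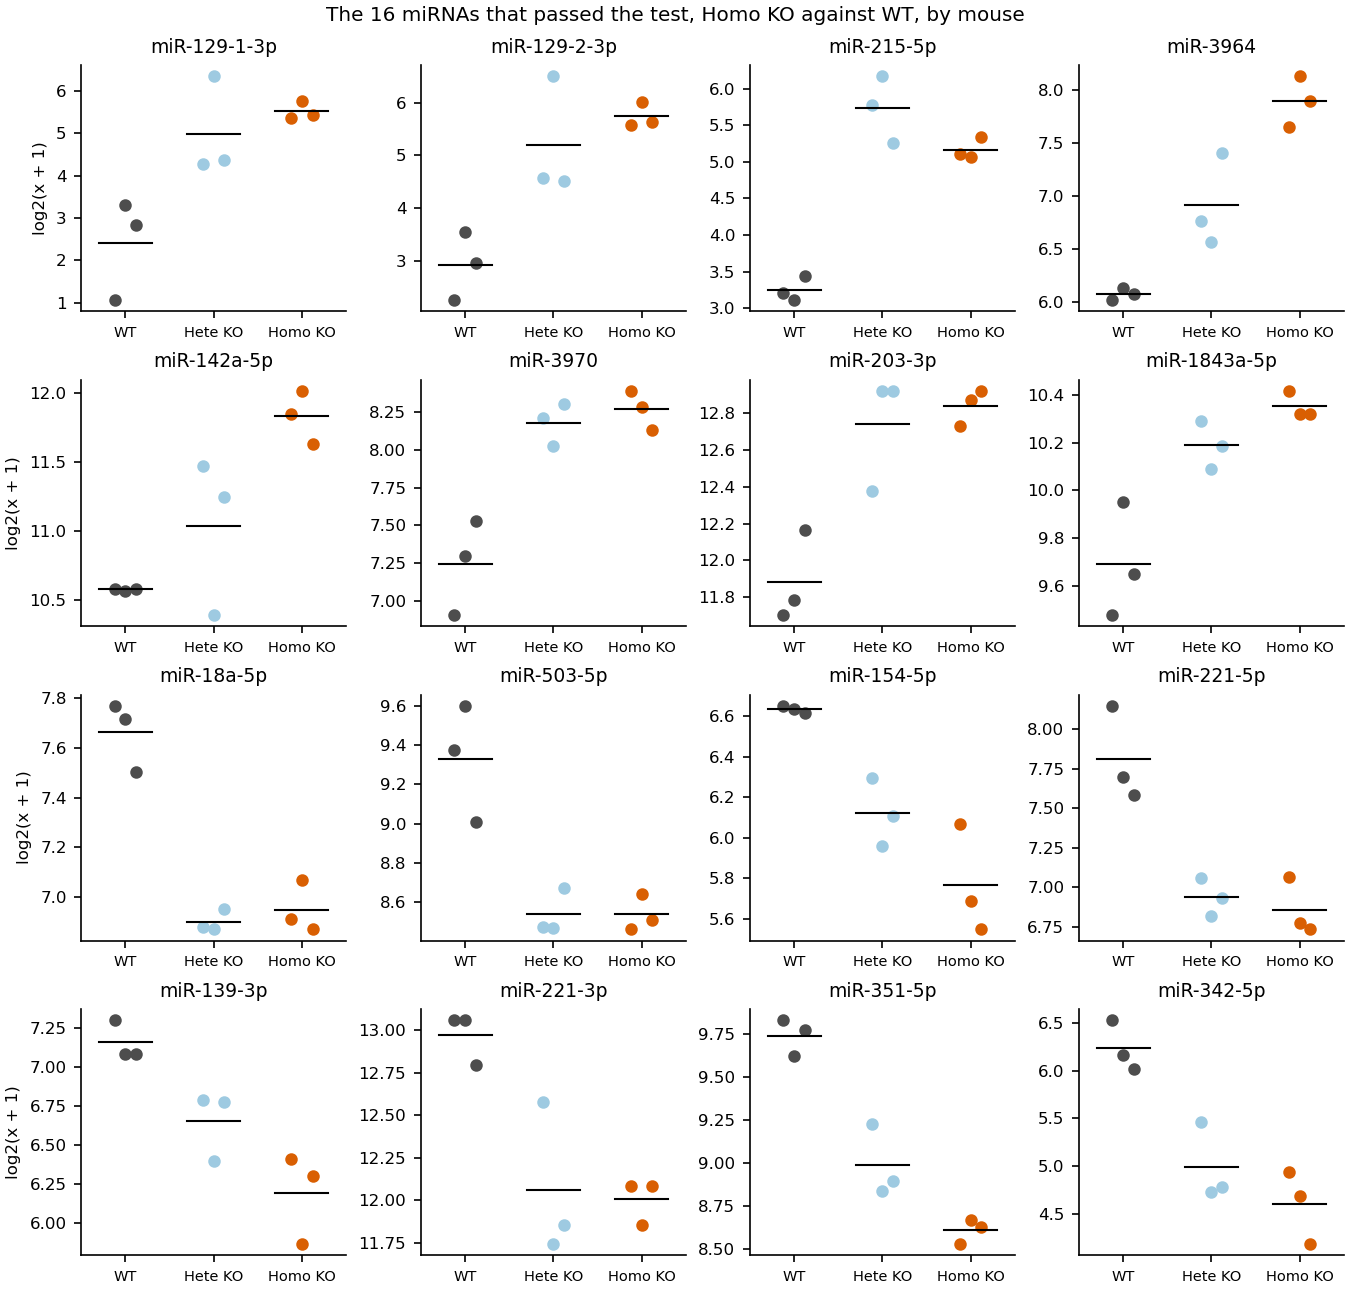
Level of each of the 16 called miRNAs, log2(x + 1), in the individual mice of WT, Hete KO and Homo KO. Each point is a mouse and each line a group mean, and the vertical axes differ between panels and do not start at 0. In all 16 panels the Homo KO points lie wholly above or wholly below the WT points.

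Of the 8 miRNAs that fell, 4 come from the X chromosome. miR-351-5p, a rodent miRNA with the miR-125 seed, was at 9.83, 9.62 and 9.77 in WT replicates 1, 2 and 3 and at 8.53, 8.67 and 8.63 in Homo KO. The Homo KO mice lay close together and all below WT, and the log2 fold change was -1.13 ± 0.14 (SE, n = 3 mice each, limma, adjusted p = 0.00552), or 0.458 of the WT level. Its mature sequence lies at chrX:53053315-53053338 on the minus strand, in the cluster that also encodes miR-503 and miR-322.

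miR-503-5p, which restrains the cell cycle and is studied in diabetic endothelium, comes from the same X-linked cluster, at chrX:53054027-53054049. Its levels were 9.37, 9.60 and 9.01 in WT and 8.46, 8.64 and 8.51 in Homo KO, without overlap (-0.79 ± 0.17, adjusted p = 0.0400). The cluster's abundant member miR-322-5p was lower too in each Homo KO mouse, at 12.32, 12.21 and 12.32 in WT and 11.55, 11.98 and 11.79 in Homo KO, but missed the threshold (-0.51 ± 0.16, adjusted p = 0.124). miR-322-5p was named after its values were seen.

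miR-221-3p, which acts on KIT and on cell-cycle inhibitors in vessels, had levels of 13.06, 13.06 and 12.80 in WT and 12.09, 11.85 and 12.09 in Homo KO (-0.96 ± 0.21, adjusted p = 0.0424). The other arm of the hairpin, miR-221-5p, had 8.15, 7.70 and 7.59 in WT and 7.07, 6.77 and 6.73 in Homo KO (-0.95 ± 0.19, adjusted p = 0.0314). Both arms were thus at about the same fraction of WT, 0.513 and 0.517, although the 3p arm was far more abundant. Mir221 lies at chrX:19146294-19146388 on the minus strand.

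miR-18a-5p, a member of the polycistronic miR-17 cluster that promotes proliferation and shapes vessel growth, was at 7.77, 7.72 and 7.50 in WT and at 6.91, 7.07 and 6.87 in Homo KO (-0.71 ± 0.14, adjusted p = 0.0314). It lies in an exon of Mir17hg at chr14:115043867-115043889 on the plus strand. Its neighbours in that transcript were not called. miR-20a-5p differed by -0.31 ± 0.13 (adjusted p = 0.195) and miR-17-5p by -0.16 ± 0.16 (adjusted p = 0.559), both named after their values were seen.

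The remaining miRNAs that fell come from host transcripts of other kinds. miR-342-5p, from an intron of Evl and known from lymphoid cells, was at 6.53, 6.17 and 6.02 in WT and at 4.94, 4.68 and 4.18 in Homo KO. That is 0.321 of the WT level, with every Homo KO mouse more than 1 log2 unit below every WT mouse (-1.64 ± 0.29, adjusted p = 0.0283). miR-139-3p, from an intron of the cyclic nucleotide phosphodiesterase gene Pde2a, was at 7.30, 7.09 and 7.09 in WT and at 6.41, 5.87 and 6.30 in Homo KO (-0.96 ± 0.19, adjusted p = 0.0323).

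miR-154-5p, of the imprinted Dlk1-Dio3 region, lies at chr12:109738438-109738459 on the plus strand in an intron of the noncoding gene Mirg. Its WT mice were almost level at 6.65, 6.64 and 6.61, and its Homo KO mice were lower and more spread at 6.07, 5.69 and 5.55 (-0.87 ± 0.18, adjusted p = 0.0400).

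Among the miRNAs that rose, miR-142a-5p and miR-203-3p mark cell types other than endothelium. miR-142a-5p, a miRNA of blood cells, was at 10.58, 10.56 and 10.58 in WT and at 11.85, 12.02 and 11.63 in Homo KO. The WT mice hardly differed and all Homo KO mice were above them (1.26 ± 0.25, adjusted p = 0.0314), at 2.39 times the WT level. All 5 leukocyte markers were measured and none was at the lowest value in any library. Their summed level was 13.89 to 14.20 in WT and 14.35 to 14.67 in Homo KO. The mean of the 3 markers other than the miR-142a arms was 11.57 ± 0.27 in WT and 11.86 ± 0.13 in Homo KO (SD, n = 3, exact permutation test, two-sided p = 0.3). In whole tissue, more cells of a type and more RNA per cell cannot be told apart, and likewise fewer cells and less RNA per cell. The part of leukocyte content in the rise of miR-142a-5p was not tested.

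miR-203-3p, a keratinocyte miRNA that limits stem-cell properties in skin, was at 11.71, 11.79 and 12.16 in WT and at 12.73, 12.87 and 12.92 in Homo KO (0.95 ± 0.18, adjusted p = 0.0314). It lies at chr12:112130927-112130948 on the plus strand, with no other annotated gene on that strand. All 7 epithelial markers, miR-203-3p among them, were measured, none at the lowest value in any library. Their summed level was 11.79 to 12.23 in WT and 12.80 to 12.96 in Homo KO, and it is mostly miR-203-3p itself. The summed level of the other 6 was 7.30 to 7.83 in WT and 8.00 to 8.49 in Homo KO (exact permutation test, two-sided p = 0.1). The mean of these 6 overlapped, at 4.59 to 5.01 in WT and 4.94 to 5.76 in Homo KO (exact permutation test, two-sided p = 0.2). miR-203-3p was the only member of that list that was called, and the part of epithelial content in its rise was not tested.

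Among the miRNAs that rose, the largest fold changes belonged to rare ones. miR-129-2-3p, best known from brain, was at 2.25, 3.54 and 2.95 in WT and at 5.58, 6.01 and 5.63 in Homo KO, a rise of 2.82 ± 0.54 (adjusted p = 0.0314). miR-129-1-3p was at 1.06, 3.31 and 2.84 in WT and at 5.35, 5.77 and 5.42 in Homo KO (3.11 ± 0.67, adjusted p = 0.0409). These 3p arms are near copies from separate loci whose reads can be shared, so they are not independent. The joint 5p arm, miR-129-5p, had 4.16, 5.46 and 4.61 in WT and 6.44, 7.87 and 7.37 in Homo KO, again without overlap, and just missed the threshold (2.49 ± 0.62, adjusted p = 0.0526).

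miR-215-5p, a p53-responsive miRNA, was at 3.20, 3.11 and 3.44 in WT and at 5.10, 5.06 and 5.34 in Homo KO. All 3 Homo KO mice were above all WT mice, at 3.78 times the WT level (1.92 ± 0.28, adjusted p = 0.00942). The WT means of miR-215-5p and of both miR-129 3p arms lay below the filter of 3.46, so these miRNAs were tested only because the knockout mice had more, and they had to differ to be tested. The 4 neural markers, whose summed level was 9.71 to 10.18 in WT and 9.90 to 10.28 in Homo KO, overlapped between the groups.

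miR-3964, a miRNA of which little is known, was at 6.02, 6.14 and 6.08 in WT and at 7.66, 8.13 and 7.90 in Homo KO. The groups were far apart relative to their spread (1.82 ± 0.23, adjusted p = 0.00552), with Homo KO at 3.52 times WT. It lies at chr15:29713337-29713356 on the minus strand, with no other annotated gene on that strand. Its levels rose alongside those of miR-142a-5p, with which it shares 13 consecutive bases that begin within the seed. The shared run is in capitals.
miR-142a-5p: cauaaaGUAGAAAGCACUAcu
miR-3964: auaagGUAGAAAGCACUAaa
Of the 405 tested miRNAs with a sequence, 69 (17.0%) shared a run of at least 13 bases with another of them. In 20 (4.94%) the longest such run was with a miRNA of a different seed, as here. Only the longest run of each miRNA was counted, so 20 is a lower bound for runs across seeds. The run starts at base 7 of miR-142a-5p and at base 6 of miR-3964. With that shift, the bases of miR-3964 ahead of the run also match miR-142a-5p but for a single base. The names are therefore more alike than the run and the different seeds show. How reads that match both were counted is not given in the sources used here, and how much each name's value owes to the other was not tested.

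miR-3970 was at 6.91, 7.30 and 7.53 in WT and at 8.39, 8.28 and 8.13 in Homo KO (1.02 ± 0.18, adjusted p = 0.0283). miR-1843a-5p was at 9.48, 9.95 and 9.65 in WT and at 10.42, 10.32 and 10.32 in Homo KO (0.66 ± 0.15, adjusted p = 0.0424). Both were higher in each Homo KO mouse than in any WT mouse. miR-1843a-5p maps to chr12:80391654-80391674 on the minus strand, within an intron of Dcaf5 and an exon of the small Cajal body RNA gene Scarna3b, and shares a run of 20 bases with miR-1843b-5p, which stood at 0.61 ± 0.15 (adjusted p = 0.0526), so these values too are uncertain as separate measurements.

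Endothelial miR-126a, encoded in Egfl7, is the miRNA most typical of the cells in which Ago1 was knocked out. miR-126a-3p was at 17.58, 17.99 and 17.83 in WT and at 17.58, 17.58 and 17.45 in Homo KO, so the groups touched and the test was not passed (-0.27 ± 0.19, adjusted p = 0.428). miR-126a-5p was at 15.04, 15.34 and 14.95 in WT and at 14.48, 14.80 and 14.65 in Homo KO, lower without overlap, and also missed the threshold (-0.47 ± 0.14, adjusted p = 0.0869). The 2 arms together had summed levels of 17.81 to 18.20 in WT and 17.64 to 17.77 in Homo KO, with the smallest two-sided p that 3 mice against 3 allow (exact permutation test, p = 0.1).

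The calls rested on few mice. Leaving out each of the 9 libraries in turn, miR-351-5p and miR-3964 were called in 9 of 9 refits and miR-215-5p in 7, the exceptions being without Homo KO replicate 1 and without Homo KO replicate 3. Of the 16 calls, 3 were kept without WT replicate 1, 4 without WT replicate 2, 9 without WT replicate 3, 6 without Hete KO replicate 3, and 2, 3 and 2 without Homo KO replicates 1, 2 and 3. Without the 3 libraries highest in muscle miRNAs, miR-129-1-3p (adjusted p = 0.0176) and miR-129-2-3p (adjusted p = 0.0139) were kept and the other 14 were lost, among them miR-351-5p, miR-3964 and miR-215-5p (adjusted p = 0.103 each). With the mean of the muscle miRNAs as a covariate 3 were kept, and with the count of miRNAs at the floor as a covariate 0 of the 489 passed. The refit without the 3 muscle libraries had WT replicate 3 as its only WT mouse. Both miR-129 3p arms and miR-215-5p entered the test only through the higher knockout mice. Their calls in these refits are therefore no measure of firmness.

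Arm pairs compare the strands of a precursor with each other. Of 255 hairpin names with both arms in the data, 141 had both arms above the filter. Of these, 108 had both arms from a single annotated locus and distinct in value, miR-142a among them. For the others an arm name may hold reads of more than 1 hairpin, or no locus was matched. The difference 5p minus 3p was compared between genotypes, and 1 pair was called (0.709%), that of miR-142a. In 29 pairs (20.6%) the difference did not overlap between WT and Homo KO, with 16 shifted to the 5p arm (11.3%) and 13 to the 3p arm (9.22%). An unadjusted p under 0.05 was reached by 21 (14.9%).

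miR-142a is a hairpin from which both arms are used in blood cells. In WT its 5p arm was the rarer, with 5p minus 3p at -1.63, -1.75 and -1.27. In Homo KO the gap had narrowed to -0.59, -0.36 and -0.57, every mouse above every WT mouse, a change of 1.04 ± 0.20 (SE, n = 3 each, limma, adjusted p = 0.0423). The shift came from the 5p arm, since miR-142a-3p was at 12.21, 12.32 and 11.85 in WT and at 12.44, 12.38 and 12.21 in Homo KO, with overlap (0.22 ± 0.27, adjusted p = 0.632). In Hete KO the 5p minus 3p difference was -0.51, -0.53 and -0.73, close to Homo KO, while the 5p level itself was 11.47, 10.39 and 11.24, so that in Hete KO replicate 2 both arms were low and yet their ratio was like that of the other knockout mice. The change from WT in Hete KO, which shares the WT mice, was 0.96 ± 0.20 (adjusted p = 0.0795).

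**Figure D2:**
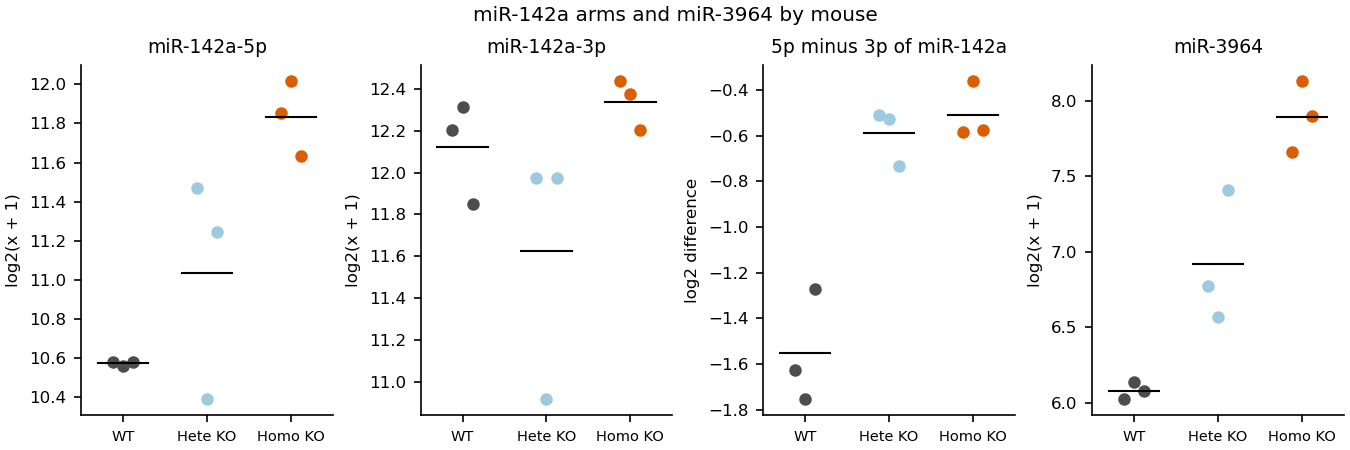
Levels of miR-142a-5p, miR-142a-3p and miR-3964, log2(x + 1), and the log2 difference between the arms of miR-142a, by mouse. Points are mice, lines are group means and axes differ between panels. The arm difference is between -1.75 and -1.27 in WT and between -0.73 and -0.36 in the 6 knockout mice.

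The call of miR-142a as an arm pair was kept in 1 of 9 refits that left out a library, that without WT replicate 3, and in 7 of 21 alternatives in all, with adjusted p from 0.000387 to 0.518. The run shared with miR-3964 lies within the 5p arm, so reads shared between the names would enter this difference, which was not tested.

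The other pairs with small p are given as values, each with an adjusted p of 0.139. In miR-152, a miRNA that acts on the DNA methyltransferase Dnmt1, the arms moved apart. The rare 5p arm was lower, at 6.79, 6.68 and 6.41 in WT and 5.85, 6.22 and 5.68 in Homo KO, while the abundant 3p arm was higher, at 12.96, 13.43 and 13.35 in WT and 13.52, 13.52 and 13.57 in Homo KO. Among the 141 pairs it was the only hairpin whose arms each separated the genotypes without overlap in opposite directions. The 5p minus 3p difference was -6.17, -6.76 and -6.94 in WT and -7.67, -7.30 and -7.89 in Homo KO (-0.999 ± 0.258).

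In miR-342 both arms were lower, and the rare 5p arm more so. miR-342-3p was at 10.60, 10.24 and 10.03 in WT and 9.83, 9.33 and 9.40 in Homo KO (-0.77 ± 0.32, adjusted p = 0.192), against -1.64 for the 5p arm. The arm difference, -4.07, -4.07 and -4.01 in WT, was -4.89, -4.65 and -5.21 in Homo KO (-0.87 ± 0.23). miR-139 showed the same for its 3p arm: miR-139-5p, the abundant strand, was at 13.12, 12.96 and 13.17 in WT and 12.92, 12.73 and 12.73 in Homo KO (-0.30 ± 0.16, adjusted p = 0.308), and the arm difference changed by 0.67 ± 0.19. In both hairpins the strand that was called was the rarer.

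The remaining pairs by the same rule were miR-186, with 0.43 ± 0.12 for the 5p arm and -0.44 ± 0.34 for the 3p arm, and miR-455, a miRNA linked to brown adipocytes, with -0.84 ± 0.31 for the 5p arm and -0.01 ± 0.16 for the 3p arm. Their arm differences changed by 0.87 ± 0.25 and -0.83 ± 0.24. miR-700, named after its values were seen, had the same adjusted p. Its 5p minus 3p difference was -0.40, 0.082 and -1.21 in WT and -1.79, -1.76 and -1.40 in Homo KO, without overlap (-1.14 ± 0.34), with -0.73 for the 5p arm and 0.41 for the 3p arm. In contrast, the arm difference of miR-221 was at a mean of -5.16 in WT and -5.15 in Homo KO (0.01 ± 0.24, adjusted p = 0.988).

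**Figure D3:**
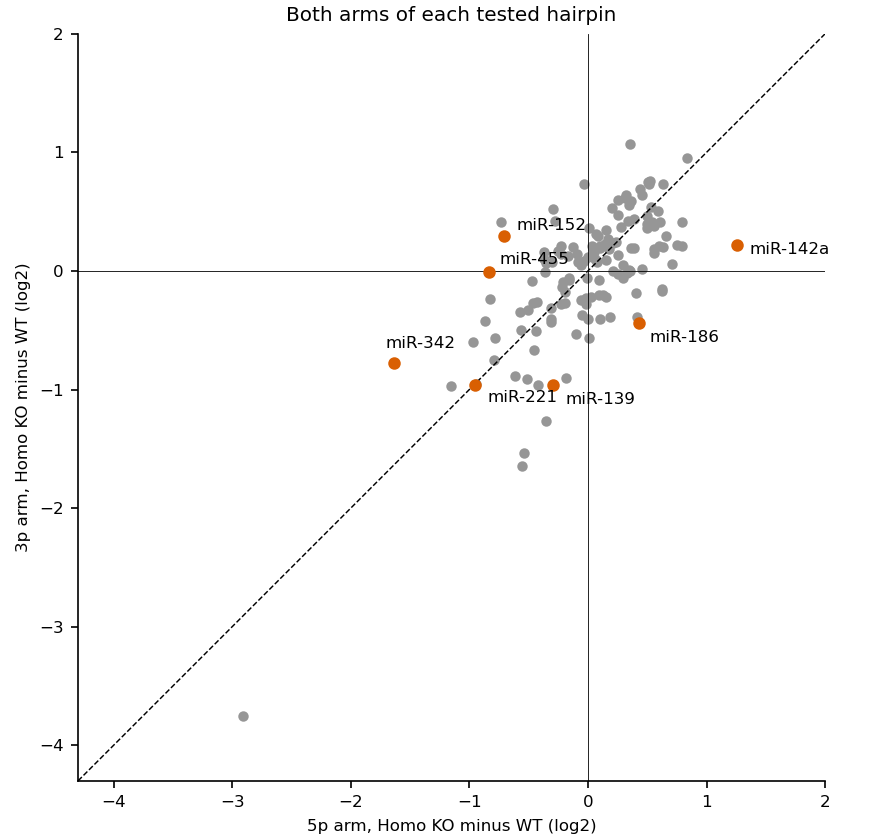
Log2 difference between Homo KO and WT of the 3p arm (vertical) against that of the 5p arm (horizontal) for 141 hairpins. Each point is a hairpin, orange points are named in the text, and the dashed line marks equal change of both arms. miR-142a lies farthest to the right and miR-221 lies on the line.

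Over all 141 hairpins the arms mostly moved together. The log2 fold changes had the same sign in 103 (73.0%), with both arms higher in 59 and both lower in 44, and opposite signs in 38. The Pearson correlation between the arms was 0.72 and the Spearman correlation 0.63 across hairpins, which share the 6 libraries and their muscle content and are not independent. In 19 hairpins both arms separated the genotypes in the same direction, 7 higher and 12 lower, and in 59 only a single arm did. Among the 7, miR-669a and miR-669o have the same log2 fold change of the 3p arm (0.73) and may not be separate measurements. Over all 489 tested miRNAs, 160 (32.7%) separated the genotypes, 18.4% higher and 14.3% lower. The change in arm difference had a median size of 0.24 log2 units and exceeded 1 in 3 hairpins, miR-142a, miR-486a and miR-700. Of these, miR-486a is an erythroid hairpin whose arm difference ranged from 4.32 to 7.36 within WT (1.09 ± 0.89).

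The more abundant arm was 5p in 80 hairpins and 3p in 61, and it exceeded the other by a median of 3.06 log2 units. Its median log2 fold change was 0.06, and that of the rarer arm was 0.08, with 77 and 79 of 141 higher in Homo KO. The gap between the arms was wider in Homo KO in 66 of 141. The rarer arm had the larger changes in size, with a median of 0.36 against 0.28, and it was also measured at lower levels. The arms changed order in 2 hairpins, miR-467b and miR-574.

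Of the 16 called miRNAs, 9 had a tested partner arm, in 8 hairpins. In all 8 the partner differed in the same direction, and only in miR-221 were both arms called. Besides miR-142a-3p, miR-342-3p and miR-139-5p, described above, the partners were miR-503-3p, miR-203-5p, miR-154-3p and miR-1843a-3p. miR-503-3p was at 7.59, 7.48 and 7.56 in WT and 6.78, 7.07 and 7.09 in Homo KO, without overlap (-0.56 ± 0.15, adjusted p = 0.0585). The differences of miR-203-5p (0.84 ± 0.56), miR-154-3p (-0.42 ± 0.37) and miR-1843a-3p (0.29 ± 0.34) came with overlap between the groups.

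Seed families sum the miRNAs that could compete for the same targets. The 405 miRNAs with a sequence formed 324 families by bases 2 to 8, of which 276 had 1 member and 48 had 2 or more. The other 84 tested miRNAs had no sequence entry and are in no family. A family can therefore lack tested relatives, and some have 1 member only for that reason. miR-129-2-3p, for example, stands without its near copy miR-129-1-3p. On the summed level, 24 families were called (7.41%), 11 higher (3.40%) and 13 lower (4.01%). Of these, 22 were families with 1 member among the miRNAs with a sequence, so that their values are those of that miRNA itself. Among them, 11 were miRNAs already called above, and the other 11 had a miRNA-level adjusted p of at most 0.0570 and passed here where fewer features were tested. Among the 48 families with several members 2 were called (4.17%), and in 19 (39.6%) the groups did not overlap, 15 higher (31.2%) and 4 lower (8.33%).

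The miR-30a-3p and miR-30e-3p family, the 3p strands of hairpins abundant in adipocytes, had a summed level of 13.17, 13.40 and 13.36 in WT and 13.77, 14.06 and 13.86 in Homo KO. All Homo KO mice were above all WT mice (0.58 ± 0.13, adjusted p = 0.0363). miR-30d-3p had no sequence entry, so it is not in this sum (log2 fold change 0.73). All 6 adipocyte markers were measured, and their summed level was 19.21 to 19.33 in WT and 19.41 to 19.56 in Homo KO (exact permutation test, two-sided p = 0.1). That list includes miR-30a-5p, the other arm of the miR-30a hairpin, so it is not separate from this family. The mean of the 6 markers overlapped, at 14.69 to 14.77 in WT and 14.71 to 14.97 in Homo KO (exact permutation test, two-sided p = 0.2). The part of adipocyte content in this result was not tested. Neither member was called alone. miR-30a-3p differed by 0.60 ± 0.14 (adjusted p = 0.0526) and miR-30e-3p by 0.56 ± 0.15 (adjusted p = 0.0583), and the sequences shown above are alike but for few bases, so their reads may be split between the names.

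The miR-221-3p and miR-222-3p family fell from 13.56, 13.48 and 13.23 in WT to 12.61, 12.31 and 12.50 in Homo KO (-0.95 ± 0.22, adjusted p = 0.0371). The hairpins lie within the same stretch of the X chromosome. miR-222-3p, at 11.79, 11.51 and 11.29 in WT and 10.88, 10.45 and 10.52 in Homo KO, was lower without overlap and not called alone (-0.91 ± 0.28, adjusted p = 0.101). Each of these 2 family calls was kept in 2 of 9 refits that left out a library, those without Hete KO replicate 1 and without Hete KO replicate 2, and was lost in the other 7.

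The next families by p are given as values. The family of miR-132-3p and miR-212-3p, CREB-responsive miRNAs that act in vessel growth, was at 9.45, 9.07 and 9.17 in WT and 8.76, 8.46 and 8.52 in Homo KO (-0.65 ± 0.18, adjusted p = 0.0509), with miR-132-3p making up 94.5% of it. The family of miR-130a-3p, miR-130b-3p and miR-301a-3p, which represses PPARG, was at 10.23, 10.03 and 10.38 in WT and 10.82, 10.79 and 10.98 in Homo KO (0.65 ± 0.18, adjusted p = 0.0582). Only its most abundant member stood apart, with 0.76 ± 0.19 for miR-130a-3p, 0.19 ± 0.24 for miR-130b-3p and -0.01 ± 0.21 for miR-301a-3p. The family of miR-30a-5p, miR-30c-5p, miR-30e-5p and miR-384-5p was higher by 0.29 ± 0.08 (adjusted p = 0.0582) and that of miR-30c-1-3p and miR-30c-2-3p by 0.54 ± 0.17 (adjusted p = 0.101), in both without overlap between the groups. miR-30b-5p (log2 fold change 0.39) and miR-30d-5p (-0.03) had no sequence entry and are not in the sum with miR-30a-5p.

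**Figure D4:**
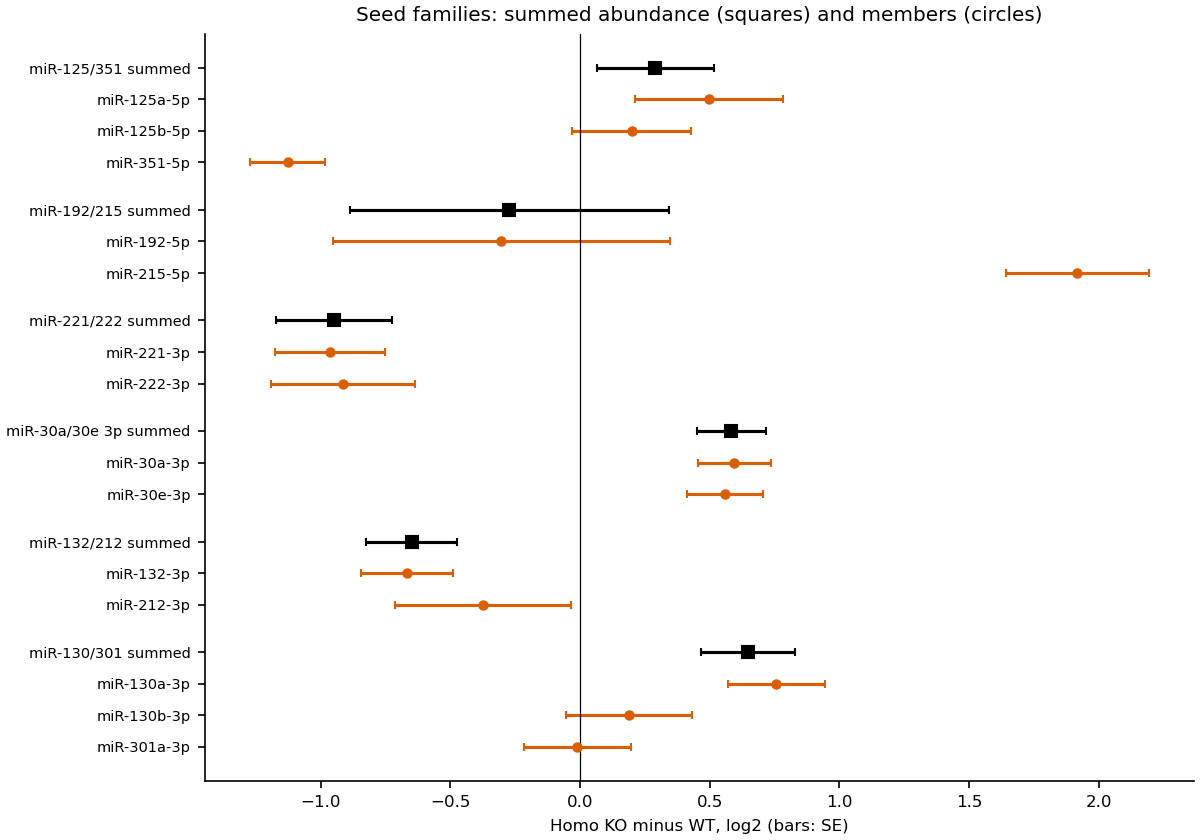
Log2 difference between Homo KO and WT for 6 seed families. Black squares are the summed level of a family and orange circles its members, with bars of 1 SE. miR-351-5p and miR-215-5p lie on the other side of 0 from their families' most abundant members, while miR-221-3p and miR-222-3p lie together.

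A called miRNA could be a small part of its family. miR-351-5p made up 0.983% of the summed miR-125a, miR-125b and miR-351 family in WT and 0.384% in Homo KO. miR-125b-5p held 67.0% in WT and 63.5% in Homo KO. The family as a whole was at 16.52, 15.73 and 16.78 in WT and 16.63, 16.57 and 16.70 in Homo KO, overlapping and not called (0.29 ± 0.23, adjusted p = 0.447), and without WT replicate 2 its difference was -0.019. Likewise miR-215-5p was 0.382% of the family with miR-192-5p in WT and 2.14% in Homo KO, and the family difference was -0.27 ± 0.62 (adjusted p = 0.786), from -1.09 without WT replicate 1 to 0.18 without WT replicate 2. miR-192-5p varied within WT from 9.10 in replicate 1 to 11.66 in replicate 2.

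Across the 48 families with several members, all members moved in the same direction in 34 (70.8%), 23 higher and 11 lower, and in 14 they were mixed. By size, 34 of the 48 families have only 2 members. Some members are nearly the same sequence, as miR-199a-3p and miR-199b-3p with a shared run of 22 bases. Members of a family are thus not independent. The most abundant member held a median of 61.6% of its family. The largest families were not called. The let-7 family of 10 members differed by 0.05 ± 0.14 (adjusted p = 0.812), that of miR-17 with 6 by 0.07 ± 0.13 (adjusted p = 0.735), that of miR-15 and miR-16 with 6 by 0.11 ± 0.13 (adjusted p = 0.608) and that of miR-25-3p and miR-92a-3p with 5 by 0.12 ± 0.12 (adjusted p = 0.564).

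Abundance classes were cut on the mean over the 9 libraries, and their shares stand beside 3.27% called and 32.7% without overlap over all 489 miRNAs, 18.4% higher and 14.3% lower. The class with a mean of 14 and over held 43 miRNAs and 92.6% of the summed abundance, led by miR-143-3p of smooth muscle and stroma, let-7a-5p and let-7f-5p. None of the 43 passed (limma, adjusted p), 9 reached an unadjusted p under 0.05, and in 10 (23.3%) the groups did not overlap, 7 higher and 3 lower. The smallest p belonged to miR-30e-5p, at 17.45, 17.58 and 17.45 in WT and 17.83 in all 3 Homo KO mice (0.34 ± 0.08, adjusted p = 0.0526), where levels are shared steps of the ranking. It was followed by miR-99a-5p, at 14.80, 14.80 and 14.88 in WT and 15.04, 15.34 and 15.34 in Homo KO (0.41 ± 0.11, adjusted p = 0.0656). These 2 were named after their values were seen. In this class only the muscle miRNA miR-1a-3p differed by more than 1 log2 unit, and its WT mice ranged from 12.09 to 18.99 (-3.32 ± 2.14, adjusted p = 0.384).

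The class from 10 to under 14, led by miR-378a-3p, miR-30b-5p and miR-181a-5p, held 87 miRNAs and 6.40% of the summed abundance. In it 3 rose, miR-142a-5p, miR-203-3p and miR-1843a-5p, and miR-221-3p fell (4.60% called). Of the 29 miRNAs without overlap (33.3%), 22 were higher and 7 lower in Homo KO. Besides miR-142a-5p, the 2 miRNAs with a difference over 1 log2 unit were let-7k (1.26 ± 0.35, adjusted p = 0.0656) and the muscle miRNA miR-133a-3p (-3.76 ± 2.23, adjusted p = 0.345), neither called.

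The class from 6 to under 10, led by miR-7b-5p, miR-19b-3p and miR-423-5p, held 194 miRNAs but 0.877% of the summed abundance. It gave 2 of the calls that rose, miR-3964 and miR-3970, and 6 of the 8 that fell, with 4.12% called and 35.6% without overlap. The class under 6, led by miR-485-3p, miR-1981-3p and miR-103-2-5p, held 165 miRNAs and 0.0827% of the summed abundance. In it miR-129-1-3p, miR-129-2-3p and miR-215-5p rose and miR-342-5p fell (2.42% called, 31.5% without overlap). The miRNAs that rose in this class entered the test only through the higher knockout mice, as given above.

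Error fell with abundance. The median SE of the log2 fold change was 0.34 in the class under 6, 0.21 from 6 to under 10, 0.17 from 10 to under 14 and 0.16 from 14 up. The median size of the log2 fold change fell alongside, from 0.43 through 0.32 and 0.21 to 0.20. The number of miRNAs with a difference over 1 log2 unit was 17, 6, 3 and 1 in the same order. The median signed log2 fold changes of the classes lay between 0.05 and 0.10.

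**Figure D5:**
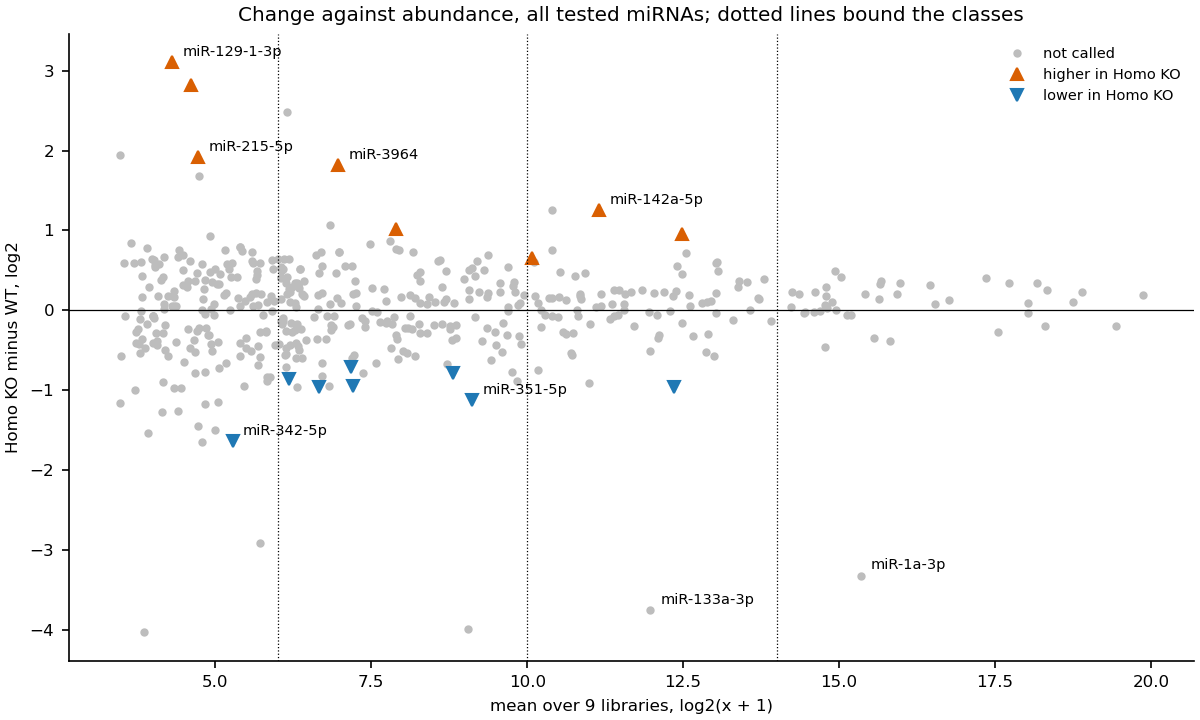
Log2 difference between Homo KO and WT against the mean level over 9 libraries, log2(x + 1), for 489 miRNAs. Triangles are the 16 called miRNAs, grey points the others, and dotted lines mark the class edges at 6, 10 and 14. No call lies to the right of 14, and the points at the bottom include miR-1a-3p and miR-133a-3p of muscle.

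By position, 4 of the 8 miRNAs that fell lie on the X chromosome, where 43 tested miRNAs with a sequence map and none rose. They come from 2 clusters, Mir221 and the cluster of Mir351 and Mir503, so they are not independent. Of the 43, 14 were lower and 3 higher without overlap. Over all 489 miRNAs, with or without a sequence, 3.27% were called and 220 had a negative difference. Without overlap, 70 of the 489 (14.3%) were lower and 90 (18.4%) higher. Chromosome 12 held 64 tested miRNAs with a sequence. Of these, 55 had a negative difference, with a median of -0.43, and 25 were lower and 3 higher without overlap. Chromosome 12 gave 2 calls in each direction, miR-342-5p and miR-154-5p lower, miR-203-3p and miR-1843a-5p higher. Neighbours from the same cluster, as in the Dlk1-Dio3 region, are not independent here either. A miRNA with several loci was placed at the first listed.

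The Hete KO mice share the WT mice with this comparison, so their values are given side by side and not as a second test. Against WT, 2 of 489 miRNAs were called in Hete KO (0.409%). miR-351-5p was at 9.23, 8.84 and 8.89 in Hete KO, between WT and Homo KO without overlap with either. miR-3964 was also intermediate, at 6.77, 6.57 and 7.41. miR-215-5p was at 5.78, 6.17 and 5.26, overlapping Homo KO, and miR-503-5p at 8.48, 8.47 and 8.67, likewise overlapping Homo KO. Homo KO against Hete KO gave 0 calls (0%; limma, adjusted p) and 41 miRNAs with an unadjusted p under 0.05 (8.38%). The largest of those differences among the 16 were in miR-3964 (0.98 ± 0.23, adjusted p = 0.509) and miR-142a-5p (0.80 ± 0.25, adjusted p = 0.509).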

How the data were processed

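Small RNA of 9 mice was profiled with Illumina's TruSeq small RNA kit after Trizol extraction, per the labels' protocols, and mapped to mm10, per the submitters' processing notes. The sources used here do not give the aligner, counter, annotation or normalization. The authors deposited a log2 value for each mature miRNA. Ranked values were nearly equal in all libraries and the lowest was near 0, so they were treated as quantile-normalised log2(x + 1), although the deposited tables are called FPKM. Depth is unknown.

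Tested were 489 of 860 miRNAs, being above the floor of a library in 3 or more libraries, with a mean of at least 3.46, which is log2(10 + 1). limma 3.58.1 in R 4.3.3 (eBayes with a variance trend, all 9 libraries, contrast Homo KO minus WT, no covariate) was run on miRNAs, on 5p minus 3p of arm pairs and on summed seed families, each with Benjamini-Hochberg adjustment and a threshold of 0.05. The steps were tested on simulated data. Mouse replicates are separate animals, and p-values measure the spread between them. Marker levels were compared by an exact permutation test. Sequences and positions come from RefSeq (GRCm38.p6) and host genes from GENCODE vM21.

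Named were all called miRNAs and their partner arms, called arm pairs and families with the 6 of smallest p, members of families holding a call, the top 3 miRNAs of each abundance class and miR-126a. Outside that rule miR-129-5p, miR-1843b-5p, miR-486a, miR-700, miR-467b, miR-574, let-7k and the largest families were named after their values were seen. Members, lists and rules were chosen with earlier results of these data known. Alternatives were other filters, another pseudocount, median scaling, no variance trend, library weights, a replicate block, covariates for depth and muscle, only 6 libraries, and leaving out libraries.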

Additional observations from a re-analysis of the deposited data

How the results depend on the processing

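Called miRNAs numbered 16. The count was 25 with a replicate block (15 of the 16 kept), 25 with the stricter filter, 9 with no filter, 74 with library weights (42 higher, 32 lower), 3 with the muscle covariate, 0 with the depth covariate and 8 without the 3 libraries highest in muscle miRNAs (2 of the 16 kept). Leaving out single libraries gave 2 to 25. Called arm pairs numbered 1. The count was 0 with only the 6 libraries compared, with a replicate block, with the muscle covariate, with no filter and without the 3 muscle libraries, and 4 with the stricter filter (miR-139, miR-142a, miR-30d and miR-339). Leaving out single libraries gave 0 to 1. With the depth covariate 1 pair was called, but it was miR-744 (-1.42, adjusted p = 0.0112). Called families numbered 24. The count was 1 with the depth covariate, miR-3964 (1.91, adjusted p = 0.0419), 2 with the muscle covariate, 55 with library weights, 14 with no filter, 13 with no variance trend, 2 without the 3 muscle libraries and 27 with a replicate block. Leaving out single libraries gave 1 to 32.

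Direction turned in few results. miR-154-3p was at 0.074 with the depth covariate and miR-1843a-3p at -0.12 without the 3 muscle libraries. The miR-125 and miR-351 family ranged from -0.019 (without WT replicate 2) to 0.51 when single libraries were left out, and was at -0.15 without the 3 muscle libraries and -0.14 as the mean of its members. The miR-192 and miR-215 family was at 0.27 with library weights, 0.18, 0.10 and 0.044 without WT replicate 2, WT replicate 3 or Homo KO replicate 3, -1.09 without WT replicate 1, and 0.81 as the mean of its members. The causes were not tested. The refits covered 25 miRNAs, 6 arm pairs and 8 families, and those not named here kept their sign. Other values in the text were not refitted.

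Replicate numbers were not used to pair the mice in the main fit. Deviations of WT and Homo KO libraries with the same number correlated at 0.45, -0.12 and 0.41. Not every library correlated best with its own number, and so few values cannot decide whether the mice were paired. The quantile-normalised scale hides differences in total miRNA, and in groups of 3 an outlying library cannot be tested for. Fold changes of rare miRNAs are understated by the added 1.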

Other observations

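The floor was 0 in most libraries and 0.222 in Homo KO replicate 2 and Hete KO replicate 2, so 0.222 was used as the floor for all. Among the 371 miRNAs too rare to test, 4 were at or under it in all WT mice and above it in all Homo KO mice. miR-30f was at 1.72, 1.48 and 1.48 in Homo KO, miR-6239 at 1.72, 2.04 and 1.87, miR-344d-3p at 1.06, 1.48 and 2.14 and miR-654-3p at 2.14, 2.04 and 0.908. In the reverse direction there were 2, miR-1231-5p at 1.63, 0.908 and 1.72 in WT and miR-202-5p at 1.06, 1.88 and 0.843. The libraries of Homo KO had more miRNAs at the floor, as given above, and these levels are near the smallest that the scale holds.

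By the base at the 5′ end, which Argonaute proteins contact, the 86 tested miRNAs that start with C had a median log2 fold change of 0.11, with 17 higher and 5 lower without overlap (25.6% of them, against 32.7% of all tested miRNAs). The 162 that start with U had a median of 0.07 (24 higher, 27 lower without overlap, 31.5%), the 117 with A had -0.05 (19 and 23, 35.9%) and the 40 with G had -0.11 (6 and 6, 30%). These are descriptions over miRNAs that share libraries and carry no test.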
